A study of Mus musculus with 6 samples.

Results

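Membrane transporters for sugars, organic anions and cations, vitamins and nucleosides were examined in 6 mouse intestinal tumors, 3 from the duodenum and 3 from the cecum. They were chosen by gene symbol, with earlier results of these data known. Every gene was taken of the solute carrier families Slc2a, Slc5a, Slc13a, Slc16a, Slc17a, Slc19a, Slc22a, Slc23a, Slc28a, Slc29a and Slc46a and of the organic anion family Slco. Slc2a1, Slc5a8, Slc13a2, Slc16a1 and Slc16a3, of which 4 were called higher in cecal tumors, were left out. This gave 72 genes, measured by 109 probe sets, of 12393 genes that a probe set of the array named alone. All 6 tumors came from different mice that carried the Apc1638N allele and were Rb1 deficient, so tumors of both sites share these alleles. How Rb1 was lost, and the age and strain of the mice, are not stated in the sources used here. The dissected duodenal material could extend to tumors of the pylorus, the passage between stomach and duodenum. The comparison asked how tumors of these sites differ, and with no normal tissue among the samples each difference is one between tumors.

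Dietary sugars cross the small intestinal epithelium through the sodium-coupled glucose carrier SGLT1 (Slc5a1) and the facilitative carriers GLUT5 (Slc2a5) on the luminal side and GLUT2 (Slc2a2) on the blood side. Water-soluble vitamins have carriers of their own, such as Slc46a1 and Slc19a1 for folate, Slc19a2 and Slc19a3 for thiamine and Slc23a1 and Slc23a2 for ascorbate. Slc28a proteins take up nucleosides with sodium, Slc29a proteins let them equilibrate, and the Slc22a and Slco families carry organic ions, many of them drugs, chiefly in liver and kidney.

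The clearest differences lay in Slc23a2, Slc17a9 and Slc5a1, which were higher in cecal tumors, and in Slc28a3, which was higher in duodenal tumors. Of these, Slc23a2 alone still passed whichever single array was left out. Most of the other members were too dim to compare. RefSeq's promoter table (build GRCm38.p6) held windows for 59 of the 72 genes and, of these 4, for Slc5a1, Slc23a2 and Slc28a3. The 250 bases before their annotated starts are shown because the promoter is where shared control of genes that differ together would be sought, with each CG dinucleotide in capitals. The windows lie at chr5:33103969-33104218 (plus strand) for Slc5a1, chr2:132145321-132145570 (minus strand) for the upstream one of the Slc23a2 starts and chr13:58610878-58611127 (minus strand) for Slc28a3.
Slc5a1: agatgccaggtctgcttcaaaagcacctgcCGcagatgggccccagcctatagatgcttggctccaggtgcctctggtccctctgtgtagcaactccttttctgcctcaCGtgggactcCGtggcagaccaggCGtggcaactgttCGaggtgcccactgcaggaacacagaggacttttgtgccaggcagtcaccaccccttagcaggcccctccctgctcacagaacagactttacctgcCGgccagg
Slc23a2: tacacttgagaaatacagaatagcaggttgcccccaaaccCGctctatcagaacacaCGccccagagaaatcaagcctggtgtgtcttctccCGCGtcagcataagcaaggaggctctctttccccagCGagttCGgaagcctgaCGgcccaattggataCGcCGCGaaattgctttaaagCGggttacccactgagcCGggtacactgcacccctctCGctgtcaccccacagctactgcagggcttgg
Slc28a3: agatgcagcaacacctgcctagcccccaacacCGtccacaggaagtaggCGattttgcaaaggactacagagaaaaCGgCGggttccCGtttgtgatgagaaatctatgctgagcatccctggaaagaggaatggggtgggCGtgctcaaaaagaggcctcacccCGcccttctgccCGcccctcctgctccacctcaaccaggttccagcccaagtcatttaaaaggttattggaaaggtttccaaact

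The windows of Slc5a1, Slc23a2 and Slc28a3 held 6, 13 and 8 CG dinucleotides, against a median of 6 over 32851 windows of the table. A further Slc23a2 window, downstream of the printed one, held 31, more than 94.8% of all windows. Short elements bound by intestinal factors were searched on both strands, namely GTTAAT for HNF1, CAAAGT for HNF4, TTTATG for CDX and AGATAA for GATA. None of these letters occurred in the windows of Slc5a1, Slc23a2 or Slc28a3. Of the 59 members with a window, 5 held the HNF1, 11 the HNF4, 5 the CDX and 5 the GATA element, which stood in 6.43%, 12.6%, 10.8% and 9.99% of all windows.

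Each array gave a linear intensity per probe set, scaled by the authors. A probe set was tested where it exceeded the 40th percentile of its own array (92.5 to 100.7) on 3 or more arrays, a level that stands in for detection calls. Brightness differs between probe sets for technical reasons, so no gene's level is set against another's. By this filter 19 of the 72 members (26.4%) were tested, through 27 probe sets. Of all genes 65.6% were tested, and of 184 other solute carriers, the 5 family members left out among them, 66.3%. A further 7 members were above the level on 1 or 2 arrays, and 46 were dim on all 6 arrays, with a median intensity of 17.5 over their probe sets and a highest one of 93.7.

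Of 18 Slc22a genes 4 were tested and 13 were dim throughout, among them Slc22a6 and Slc22a8, the renal organic anion exchangers. Of 11 Slco genes only Slco2a1 was tested and 9 were dim throughout, including the hepatic uptake carrier Slco1b2 on all of its 5 probe sets. In the Slc2a family 1 of 7 genes was tested, in the Slc5a family 2 of 10, and in the Slc16a and Slc17a families 1 of 5 each. Runs of RefSeq neighbours were dim together: Slc17a2, Slc17a3 and Slc17a1 on chromosome 13 and Slc22a29, Slc22a30, Slc22a8 and Slc22a6 on chromosome 19 held no member above the level on any array.

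**Figure D1:**
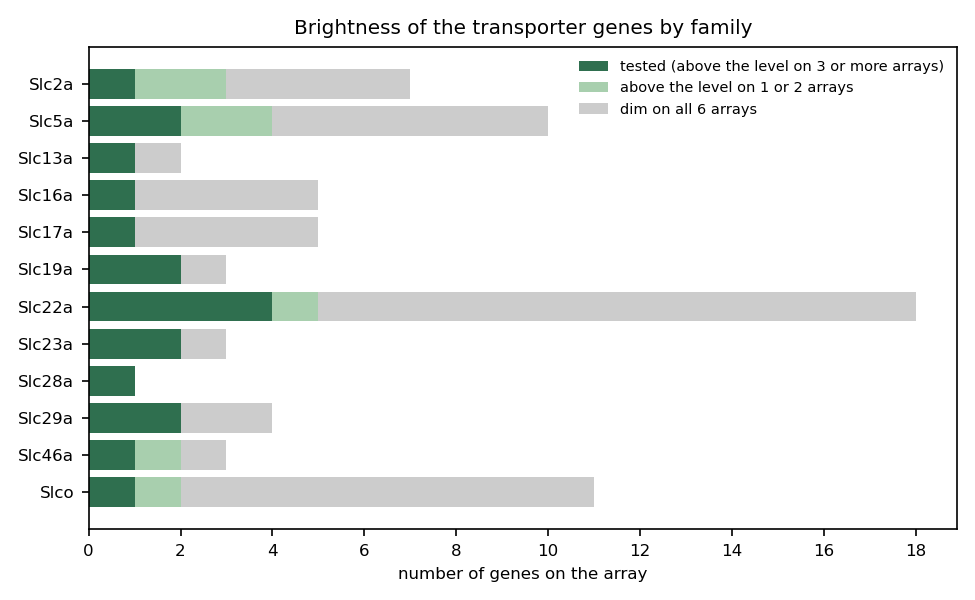
Horizontal bars count the transporter genes on the array in each family, split into genes tested (above the 40th percentile of the array on 3 or more arrays), genes above it on 1 or 2 arrays and genes dim on all 6. The Slc22a and Slco bars are mostly dim, with 13 of 18 and 9 of 11 genes.

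Of the 19 tested members 3 were higher and 1 was lower in cecal tumors by limma at a Benjamini-Hochberg adjusted p under 0.05, each gene standing for its brightest tested probe set. Among all 8124 tested genes 5.71% were higher and 4.75% lower (10.5% in all), and among 122 tested other solute carriers 13.1% and 7.38%. The other carriers include the 5 family members left out, of which 4 were called higher in cecal tumors. The members' shares rest on 19 genes, and nothing particular to the transporters is read from them. The members' median log2 fold, cecal minus duodenal, was -0.18 against -0.05 for all tested genes, and 8 members had a fold above 0 and 11 one below. With the replicate number as a block, 3 members were higher and 2 lower (6.75% and 5.99% of all genes), and without the filter on dim probe sets 4 and 2 (3.27% and 2.7%). The values of the sites did not overlap for 5 of the 19, 3 with the cecal and 2 with the duodenal tumors above, where 31.3% of all tested genes did not overlap. The 15 members that did not pass had log2 folds of -1.36 to 0.36.

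**Figure D2:**
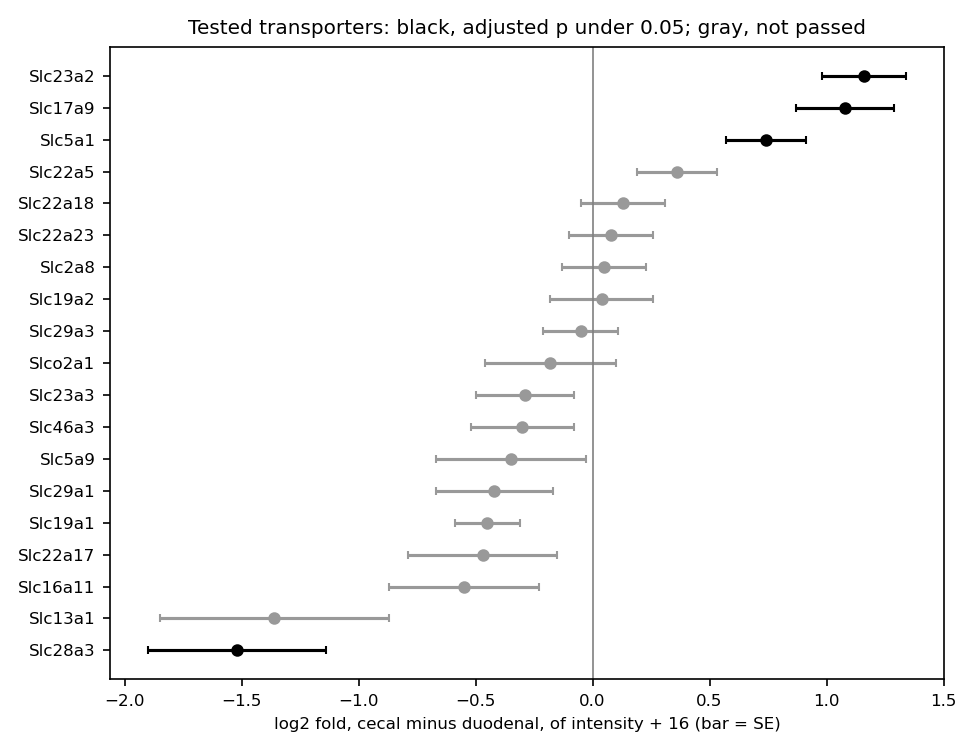
Points give the log2 fold of intensity + 16, cecal minus duodenal, for each of the 19 tested transporters, with bars for the limma standard error. Slc23a2, Slc17a9 and Slc5a1 stand to the right in black (1.16, 1.08 and 0.74) and Slc28a3 to the left (-1.52), while the gray points did not pass.

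Among the sugar carriers, Slc5a1, the sodium-coupled glucose and galactose carrier of the brush border, was higher in cecal tumors. Its brighter probe set had intensities of 548.6, 524.4 and 393.0 in duodenal tumors 1, 2 and 3 and of 709.6, 833.6 and 930.7 in cecal tumors 1, 2 and 3, the order in which all values are given here. Every cecal tumor was above every duodenal one. The means were 488.7 ± 83.7 (SD, n = 3) and 824.6 ± 110.8 (n = 3), a log2 fold of 0.74 ± 0.17 (SE; limma adjusted p = 0.0321). The other probe set read 183.3, 222.6 and 130.9 in the duodenal and 365.7, 305.6 and 314.8 in the cecal tumors, also without overlap (log2 fold 0.85 ± 0.20, limma adjusted p = 0.0355). The call of the brighter probe set was lost on leaving out any single array, with adjusted p between 0.0517 and 0.117, while its direction stayed. Of 9 epithelial markers 2 (Vil1 and Cldn7) passed, both higher in cecal tumors, and Krt20 passed with the replicate block (adjusted p = 0.00673), while Krt18 had a log2 fold of -0.14. Their summed intensity was 61452.3 to 69780.1 in duodenal and 74334.9 to 77549.1 in cecal tumors. The fibroblast sum was 11461.5 to 14730.5 against 16006.2 to 20331.0 and the leukocyte sum 6152.7 to 6670.5 against 7266.0 to 10004.7. These did not overlap either. Lyz2 alone gave 3609.0 to 4303.8 against 4541.2 to 6103.6 of the leukocyte sum. The pancreatic sum was higher in duodenal tumors, at 4079.0 to 6034.8 against 1378.8 to 2201.9. Cela1 alone gave 2651.9 to 5597.4 against 1009.1 to 1570.9 of it, and 6 of the 9 pancreatic markers were dim on every array. The neural and glial sum was higher in duodenal tumors too, at 376.9 to 521.9 against 195.4 to 230.3. Those for smooth muscle, endothelium, liver, adipocytes and erythrocytes overlapped. The part of these cells in the Slc5a1, Slc23a2 and Slc17a9 differences was not tested. In these bulk samples, fewer cells of a type and less RNA per cell cannot be told apart.

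The facilitative sugar carriers were mostly below the level. Slc2a2, which releases sugars into the blood, had 28.1, 36.5 and 34.2 in the duodenal and 22.1, 6.9 and 2.2 in the cecal tumors. The fructose carrier Slc2a5 had 78.1, 61.7 and 56.3 against 55.2, 60.8 and 67.0. Both were dim on all 6 arrays, so that neither the non-overlapping values of Slc2a2 nor the overlapping ones of Slc2a5 give a fold. Slc2a3, the neuronal glucose carrier, and Slc2a9, a urate carrier, were dim on every array too. The insulin-responsive Slc2a4 reached the level on 2 arrays, and Slc2a10 read 191.1, 85.2 and 153.0 in the duodenal and 66.3, 80.0 and 93.1 in the cecal tumors on its brighter probe set, with duodenal tumor 2 inside the cecal range. The tested Slc2a8, an intracellular sugar carrier, had 142.6, 136.3 and 146.0 against 116.9, 164.2 and 163.9 (log2 fold 0.05 ± 0.18, limma adjusted p = 0.912). Slc5a9, a sodium-coupled carrier of mannose and fructose, overlapped between the sites and did not pass (log2 fold -0.35 ± 0.32, limma adjusted p = 0.569).

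**Figure D3:**
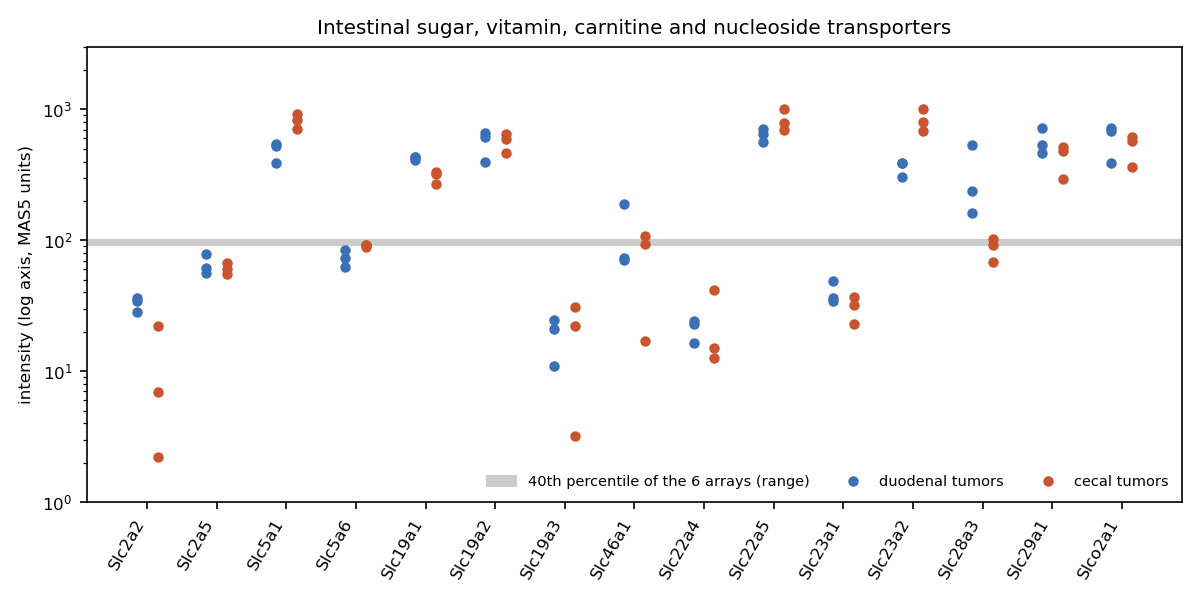
Points give the intensity of 15 intestinal transporters in each duodenal (blue) and cecal (orange) tumor on a log axis, by the brightest probe set of each gene, and the gray band spans the 40th percentiles of the 6 arrays, 92.5 to 100.7. Slc2a2, Slc2a5, Slc19a3, Slc22a4 and Slc23a1 lie below the band in every tumor, whereas Slc5a1, Slc19a1, Slc19a2, Slc22a5, Slc23a2, Slc29a1 and Slco2a1 lie above it in every tumor.

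Among the vitamin carriers, Slc23a2, the sodium-dependent ascorbate carrier found in most tissues, was higher in cecal tumors. Its brighter probe set had 307.4, 386.7 and 386.6 in the duodenal and 800.6, 1009.4 and 683.4 in the cecal tumors. The lowest cecal value was above the highest duodenal one. The means were 360.2 ± 45.8 (SD, n = 3) and 831.1 ± 165.1 (n = 3), a log2 fold of 1.16 ± 0.18 (SE; limma adjusted p = 0.0061). The other probe set was dim in the duodenal tumors, at 65.0, 78.2 and 80.0, and read 166.7, 229.1 and 179.0 in cecal tumors, a difference of at least 1.89-fold (limma adjusted p = 0.00736). Since that probe set was tested through the cecal arrays alone, its direction largely follows from the filter. Slc23a1, the epithelial ascorbate carrier, was dim on all arrays on both of its probe sets. Slc23a3, an orphan member, did not pass (log2 fold -0.29 ± 0.21, limma adjusted p = 0.471).

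None of 3 tested Slc19a and Slc46a members, carriers of folate and thiamine and a relative of theirs, passed by limma, and 1 had an unadjusted p under 0.05. Slc19a1, the reduced folate carrier, had 435.2, 433.4 and 412.9 in the duodenal and 335.5, 270.5 and 323.3 in the cecal tumors. These values did not overlap, yet the log2 fold of -0.45 ± 0.14 (SE) missed the threshold (limma adjusted p = 0.0853, or 0.0279 with array weights), and a dimmer probe set overlapped (log2 fold -0.40, limma adjusted p = 0.308). Slc46a1, the proton-coupled folate carrier of the proximal small intestine, had 73.4, 70.4 and 189.1 against 17, 93.5 and 107.3 on its brighter probe set. It was above the level only in duodenal tumor 3 and cecal tumor 3 and was not tested. Its RefSeq neighbour on chromosome 11, the dicarboxylate carrier Slc13a2, was dim in every duodenal tumor and at least 7.28-fold higher in cecal ones. Slc46a3, a lysosomal relative, overlapped (log2 fold -0.30 ± 0.22, limma adjusted p = 0.458). Slc19a2, the thiamine carrier, had 613.8, 665.9 and 399.4 against 592.1, 645.8 and 466.2 (log2 fold 0.04 ± 0.22, limma adjusted p = 0.936). A second probe set of it had the opposite sign, at -0.20, and did not pass either (limma adjusted p = 0.616). Slc19a3, another thiamine carrier, was dim on every array. Slc5a6, the sodium-dependent carrier of biotin and pantothenate, had 73.4, 62.6 and 84.3 against 92.9, 91.9 and 89.3 and was above the level on 1 array.

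Slc17a9, the vesicular nucleotide transporter that loads ATP into secretory vesicles, was higher in cecal tumors. Its intensities were 133.5, 106.3 and 186.8 in the duodenal and 331.2, 326.4 and 278.6 in the cecal tumors, with every cecal tumor above every duodenal one. The means were 142.2 ± 40.9 (SD, n = 3) and 312.1 ± 29.1 (n = 3), a log2 fold of 1.08 ± 0.21 (SE; limma adjusted p = 0.0154). It no longer passed when duodenal tumor 1 (adjusted p = 0.0568), cecal tumor 1 (0.0728) or cecal tumor 2 (0.0715) was left out. The other Slc17a members on the array, the phosphate and organic anion carriers Slc17a1, Slc17a2 and Slc17a3 and the vesicular glutamate carrier Slc17a6, were dim on all 6 arrays.

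Among the nucleoside carriers, Slc28a3, which concentrates purine and pyrimidine nucleosides with sodium, was lower in cecal tumors. The brighter probe set had 538.5, 163.0 and 239.3 in the duodenal and 91.7, 68.5 and 101.5 in the cecal tumors. The duodenal tumors were all above the cecal ones but spread widely, tumor 1 being far above tumors 2 and 3. The means were 313.6 ± 198.5 (SD, n = 3) and 87.2 ± 16.9 (n = 3), a log2 fold of -1.52 ± 0.38 (SE; limma adjusted p = 0.0434), with 1 of the 3 cecal arrays above the level. The other probe set, at 251.2, 126.5 and 154.7 against 59.7, 56.5 and 116.4, did not overlap and did not pass (log2 fold -1.05 ± 0.32, limma adjusted p = 0.0805). The call of the brighter probe set was lost on leaving out duodenal tumor 1 (adjusted p = 0.062) or 3 (0.0915) or any of cecal tumors 1, 2 and 3 (0.128, 0.148 and 0.0719). It was lost under quantile normalization (0.053) and median centring (0.0508) too. The same held with no filter on dim probe sets (0.0719), an offset of 64 (0.0534) and the mean of its probe sets (0.0542).

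Neither tested equilibrative carrier passed by limma (0 of 2, also 0 at an unadjusted p under 0.05). Slc29a1, the main one of the cell surface, had 535.2, 723.6 and 461.2 in the duodenal and 479.9, 515.7 and 292.6 in the cecal tumors (log2 fold -0.42 ± 0.25 SE, limma adjusted p = 0.359). The lysosomal Slc29a3 had a log2 fold of -0.05 ± 0.16 (limma adjusted p = 0.883). Its other probe set did not overlap, at 39.9, 59.3 and 58.3 against 12.7, 8.9 and 23.7, but was dim on every array, which leaves no fold. Slc29a2 and Slc29a4 were dim on every array. A probe set shared by Slc28a2 and Slc28a2b, which names no single gene, read 77.4, 69.4 and 52.6 in the duodenal and 2.4, 2.8 and 3.7 in the cecal tumors, below the level on all 6 arrays.

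**Figure D4:**
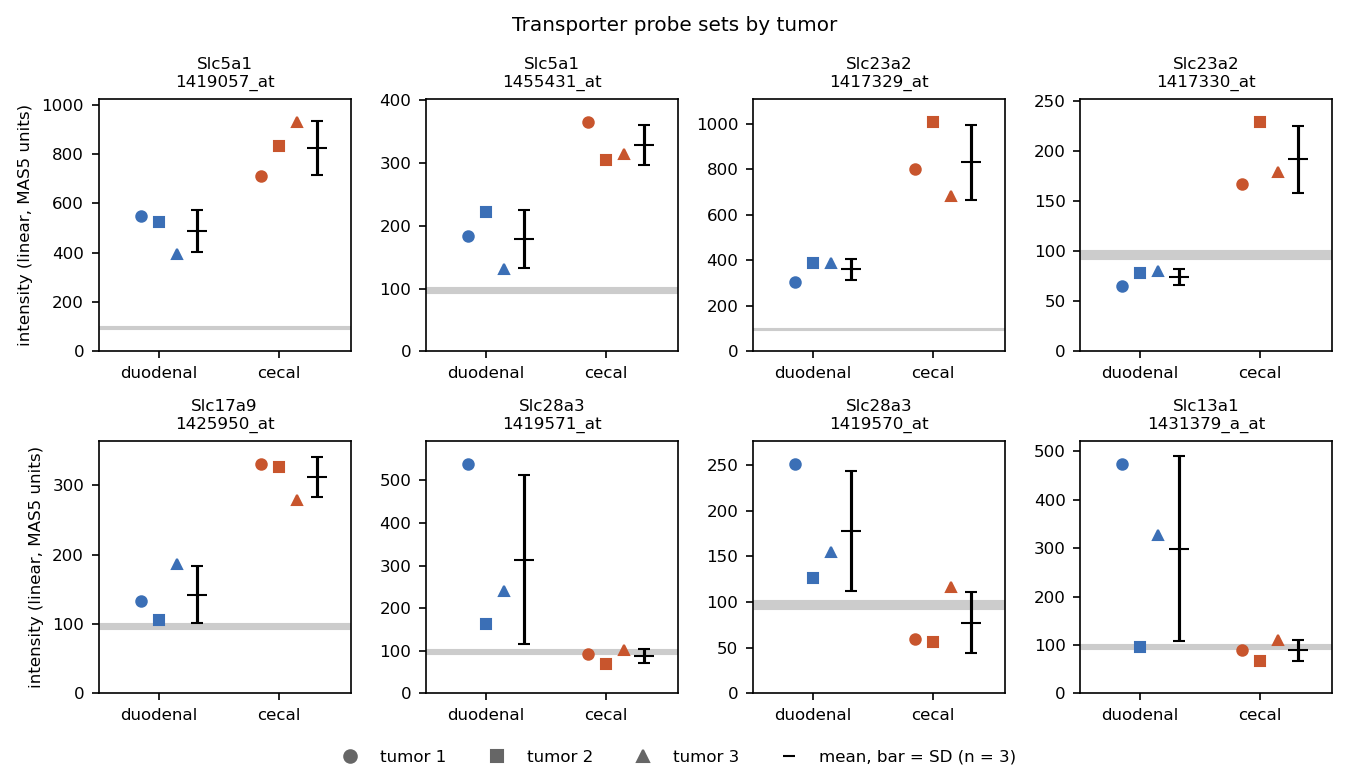
Each panel gives the intensity of 1 probe set in the 3 duodenal (blue) and 3 cecal (orange) tumors on a linear axis from 0, with the tumor number as the symbol, black bars for mean and SD, and a gray band for the 40th percentiles of the arrays. Slc5a1, Slc23a2 and Slc17a9 separate with the cecal tumors above, while Slc28a3 and Slc13a1 spread widely among the duodenal tumors (163.0 to 538.5 on the brighter Slc28a3 probe set and 95.1 to 473.8 for Slc13a1).

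Slc13a1, the sodium-coupled sulfate carrier of kidney and small intestine, had 473.8, 95.1 and 326.7 in the duodenal and 89.1, 67.4 and 110.9 in the cecal tumors. Duodenal tumor 2 lay inside the cecal range, and the log2 fold of -1.36 ± 0.49 (SE) did not pass (limma adjusted p = 0.137). A block on the replicate number, which rests on a pairing read from the data, brought it past the threshold (adjusted p = 0.0388), as it did without duodenal tumor 2 (0.00468) and with array weights (0.0257). Slc13a1 had the widest spread within sites of the tested members, a pooled log2 SD of 0.82, followed by Slc28a3 (0.62), Slc16a11 (0.49), Slc5a9 (0.47) and Slc22a17 (0.46). The median over tested members was 0.25 and over all tested genes 0.20. Duodenal tumor 2 was the lowest of its site for Slc13a1 and Slc28a3, though the highest for Slc29a1 and Slc19a2. Of the 19 tested members it was lowest for 10 and highest for 4. Duodenal tumor 1 was lowest for 5 and highest for 5, and duodenal tumor 3 for 4 and 10. In the same tumor the summed intensity of 6 duodenal markers was 3360.8, against 11049.0 and 11318.1 in duodenal tumors 1 and 3 and 238.8 to 363.5 in cecal tumors. All 6 were lower in cecal tumors, as were all 9 stomach and pylorus markers, whose sum was 65096.8 to 94194.8 in duodenal and 1234.7 to 2106.3 in cecal tumors. Duodenal tumor 2 also had the highest values of the liver gene Alb (2168.4, against 54.9 and 210.5 in duodenal tumors 1 and 3) and of the pancreatic Pnliprp1 (2611.0, against 98.8 and 223.7). Cecal tumor 2 was the highest of its site for both, at 199.2 and 467.5. The other tested marker of each list did not follow. Ttr was 1940.8 in duodenal tumor 2 against 3450.5 in duodenal tumor 3, and Cela1, at 2651.9, was lowest of its site in duodenal tumor 2. Of the liver markers 3 of 5 were dim on all arrays, and of the pancreatic ones 6 of 9. The part of any of these markers in the Slc28a3 and Slc13a1 values was not tested.

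Among the organic ion carriers none of 5 tested Slc22a and Slco members passed by limma, also 0 at an unadjusted p under 0.05. Slc22a5, the carnitine carrier, had 648.7, 566.5 and 711.0 in the duodenal and 1010.5, 697.9 and 792.7 in the cecal tumors (log2 fold 0.36 ± 0.17 SE, limma adjusted p = 0.249). The sites overlapped only through duodenal tumor 3 and cecal tumor 2. Its RefSeq neighbours on chromosome 11 are Slc22a21, another carnitine carrier, and then Slc22a4, a carrier of ergothioneine. Slc22a21 was dim in the duodenal tumors, at 48.1, 51.3 and 36.1, and read 166.8, 118.5 and 83.1 in cecal tumors. With 2 cecal arrays above the level it was not tested. Its mean log2 intensity in cecal tumors gives a difference of at least 1.17-fold over the duodenal level, although cecal tumor 3 was itself below the level. Slc22a4 was dim on every array. Slc22a18, a gene of an imprinted cluster, Slc22a23, an orphan member, and Slc22a17, a receptor for lipocalin-2, had log2 folds of 0.13, 0.08 and -0.47, none of which passed (limma adjusted p = 0.715, 0.846 and 0.427).

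Slco2a1, which clears prostaglandins from outside the cell, had 680.0, 388.0 and 717.4 in the duodenal and 577.3, 617.7 and 363.1 in the cecal tumors, with full overlap (log2 fold -0.18 ± 0.28 SE, limma adjusted p = 0.759). Of 5 prostaglandin handling genes, all tested, none was higher and 2 were lower in cecal tumors, namely Ptgr1, a prostaglandin reductase, and Ptger4, a prostaglandin E receptor (log2 folds -2.13 and -0.82, limma adjusted p = 0.00121 and 0.0152). Slco3a1 reached the level on 1 array. Slc16a11 was the tested member of the monocarboxylate family and did not pass (log2 fold -0.55 ± 0.32, limma adjusted p = 0.362), with duodenal tumor 3 at 245.5 and the other tumors at 80.8 to 117.5.

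Of the 5 family members left out, 4 passed, all higher in cecal tumors: Slc13a2, the butyrate carrier Slc5a8 (at least 5.74-fold), the glucose carrier Slc2a1 (log2 fold 1.28 ± 0.25 SE) and the lactate carrier Slc16a1 (0.97 ± 0.19). Slc13a2 and Slc5a8 were above the level on cecal arrays alone, so that their direction largely follows from the filter. Slc16a3 did not pass (log2 fold 1.11, limma adjusted p = 0.154) except with the replicate block (0.0292).

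Genes that work with these carriers were read from lists, chosen with earlier results of these data known. Of all tested genes 5.71% were higher and 4.75% lower in cecal tumors, and no enrichment is read from any list count. Of 9 tested genes of sugar digestion and metabolism 1 was higher, the hexokinase Hk2 (log2 fold 2.17 ± 0.21 SE), and none was lower, with a median log2 fold of -0.20. None of 17 tested nucleoside metabolism genes passed by limma, and 3 had an unadjusted p under 0.05 (median -0.06). With the replicate block 2 of them were higher in cecal tumors, the adenosine kinase Adk (adjusted p = 0.0336) and the AMP deaminase Ampd3 (0.0219). Of 12 tested folate, thiamine and other vitamin genes 2 were lower and none higher (median -0.25): Ggh, which trims folate polyglutamates, and Gsto1, which can reduce dehydroascorbate (log2 folds -1.29 and -0.84, limma adjusted p = 0.0482 and 0.0422). The call of Ggh was lost with the replicate block (0.0586).

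Of 6 tested chaperones and scaffolds of transporters, Slc9a3r1, a brush border scaffold, was higher (0.60 ± 0.15) and Pdzk1ip1, a partner of sodium-glucose carriers, lower (-0.75 ± 0.18), with a median of -0.01. Of 6 tested carnitine and acyl genes, the mitochondrial carnitine carrier Slc25a20 was higher (1.40 ± 0.25) and Tmlhe, the enzyme that opens carnitine synthesis, lower (-1.14 ± 0.25), with a median of -0.04. Of 10 tested regulators 5 were higher and none lower in cecal tumors (median 0.49). They were the xenobiotic receptor Nr1i2 (0.72 ± 0.17), the bile acid receptor Nr1h4 (2.27 ± 0.27), Hnf4a (0.50 ± 0.11), Cdx1 (1.57 ± 0.23) and Cdx2 (1.63 ± 0.16), the last 3 being factors of the intestinal epithelium.

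The tissue labels were checked on markers. All 6 tested cecum and colon markers were higher in cecal tumors, summing to 689.4 to 1036.6 in duodenal and 23554.0 to 31500.3 in cecal tumors over the 7 on the array. Of markers of other cells, 1 of 6 tested fibroblast genes was higher (Col3a1, joined by Col1a1 with the replicate block, adjusted p = 0.0102), and 1 of 2 tested pancreatic genes (Cela1) and the 1 tested neural and glial gene (S100b) were lower, while 6 of 9 pancreatic markers were dim throughout. S100b was above the level on duodenal arrays alone, and so were most of the stomach and duodenal markers, while most cecum and colon markers were above it on cecal arrays alone, so that these directions largely follow from the filter. None of 7 tested leukocyte, 6 smooth muscle, 4 endothelial, 2 liver and 1 adipocyte genes passed by limma, 2 leukocyte genes having an unadjusted p under 0.05, and both erythrocyte genes on the array were dim. Xist was high in tumor 2 of each site (4169.1 and 4486.3) and at most 61.6 in the others. With tumors 1 and 3 of each site alone, Slc23a2 (adjusted p = 0.0388) and, as a fall, Slc13a1 (0.0136) passed among the members, whereas Slc5a1 (0.141), Slc17a9 (0.117) and Slc28a3 (0.0506) did not.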

How the data were processed

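The data are total RNA from 6 tumors on 1 Affymetrix array each. The deposited values are linear intensities per probe set, which the authors computed in MAS5, per the submitters' processing notes. Settings and detection calls are not stated in the sources used here. The mean between the 2nd and 98th percentiles was 499.1 to 499.9 on each array, so the authors had scaled them alike, and nothing further was scaled. Sample titles gave the groups and replicate numbers.

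Of 22690 probe sets, 64 controls were left out. The platform annotation named 1 gene for 20380, several for 691 and none for 1555, and all 72 members were found in the RefSeq table (GRCm38.p6). After the filter 13859 probe sets were fitted with limma 3.58.1 in R 4.3.3 (lmFit, then eBayes with an intensity trend) as log2(intensity + 16), a scale on which dim genes change less than they do in fact. P-values are two-sided and Benjamini-Hochberg adjusted over all these probe sets, with a threshold of 0.05. The number of arrays limits the precision. Where a gene was dim on all arrays of a site, its fold is a lower bound, the bright site's mean log2 intensity over the percentile level of the dim site.

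Tumors of the same number in both sites had deviations from the site means that correlated at 0.273, 0.299 and 0.203. Tumors of different numbers had correlations of -0.2 to -0.026. No label gives a shared mouse, litter or day, so whether the numbers pair the samples is not known. The main fit therefore has no block, and the block was run as an alternative.

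Members and lists were chosen with earlier results of these data known. The rule for named genes took each member that passed, 21 intestinal carriers, the brightest member of each family and the 5 with the widest spread within sites. Other genes were named after their values were seen. Some of the 21 were not analysed here. The fit was tested on simulated data. Python 3.11.15 with pandas 2.3.3 made the tables, and matplotlib 3.10.9 the figures.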

Additional observations from a re-analysis of the deposited data

How the results depend on the processing

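Of the 19 tested members, Slc23a2 kept its call under each alternative run, with adjusted p up to 0.0388, and Slc5a1 and Slc17a9 kept theirs under each other offset, scaling, variance model and probe set rule that left them tested. The count of members higher in cecal tumors was 3, or 1 at a threshold of 0.01 and 1 with tumors 1 and 3 of each site alone, an alternative added after seeing the data. It was 2 above the 60th percentile, where Slc17a9 was not called, and 4 when dim probe sets were kept. It was 1 to 2 on leaving out each array in turn. The count lower was 1, or 0 with an offset of 64, above the 60th percentile, under quantile normalization, under median centring, at the stricter threshold and with the mean of a gene's probe sets. It was 2 with no filter on dim probe sets, where Slc28a3 was not among them. It was 2 with the replicate number as a block, 3 with array weights and 0 to 2 on leaving out each array. Slc23a2 was the member still called when duodenal tumor 1, cecal tumor 1 or cecal tumor 2 was left out. With no filter, the members called beyond Slc5a1, Slc17a9 and Slc23a2 were Slc22a12, Slc16a7 and Slco1a5, all dim on all 6 arrays, which leaves no fold. The replicate block added Slc13a1 and changed no other call of a member.

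Over all probe sets, 726 were higher and 564 lower in cecal tumors. The counts were 302 and 204 at the stricter threshold, 219 and 222 with tumors 1 and 3 alone, 264 to 576 and 202 to 490 on leaving out each array, and 1017 and 919 with array weights. Folds near 0 changed sign in members that had not passed. Slc2a8 ran from -0.027 to 0.192 on leaving out each array and was -0.052 with tumors 1 and 3 alone. Slc19a2 ran from -0.179 to 0.179 and was -0.080 with the mean of its probe sets. Slc22a23 ran from -0.068 to 0.223 and was -0.189 with tumors 1 and 3, where Slc22a18 was -0.004 and Slc29a3 0.033. Slc29a3 ran from -0.177 to 0.024 and was 0.002 under median centring, and Slco2a1 ran from -0.452 to 0.054. The cause of these changes was not tested. The distance of a probe set's signal from background limits the 53 members that were not tested.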
